A study of Mus musculus with 6 samples.

Results

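SINEs of the B1, B2, B3, B4 and ID groups made up 22 of the 302 transposon families measured in J1 ES cells as they were moved from serum into 2i+vitC. They were taken by name alone, as every family whose name starts with B1, PB1, B2, B3, B4 or ID, and no measured value entered the choice. The B1 group held 14 families, the B2 group 3 (B2_Mm1a, B2_Mm1t and B2_Mm2) and the other group 5 (B3, B3A, B4, B4A and ID_B1). Within the B1 group, 3 families carry names of the Mus lineage (B1_Mm, B1_Mus1 and B1_Mus2), and the other 11 are B1_Mur1 to B1_Mur4, B1F, B1F1, B1F2, PB1D7, PB1D9, PB1D10 and PB1D11. From D0 to D13, B2_Mm1a and B2_Mm1t were down-regulated, 2 of 22 families against 5.63% of all 302. B1_Mm and B3A were up-regulated, 2 of 22 against 9.27%, and the other 18 families did not pass the threshold. With p-values adjusted over the transposon families alone, only B2_Mm1t was still called.

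SINEs are short retroelements that encode no protein and are copied by the machinery of LINE1 elements. B1 derives from the 7SL RNA of the signal recognition particle, and PB1 is its older monomeric form, whereas B2 and ID derive from tRNAs, B3 is an older relative of B2, and B4 and ID_B1 join ID and B1 sequences. Their own promoter is read by RNA polymerase III, but many copies lie within or near genes, so that they are also carried along in transcripts of RNA polymerase II. In these libraries, own-promoter transcripts, intronic RNA and read-through RNA cannot be told apart.

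All samples were WT J1 mouse ES cells, a single line, grown without feeders on gelatin with 1000 U/mL LIF. D0 cells were in serum medium (Glasgow medium with 15% FBS), while D6 and D13 cells had spent 6 and 13 days in a Neurobasal and DMEM/F12 mixture with Ndiff Neuro2 and B27 supplements, 3 μM of the Gsk3 inhibitor CT-99021, 1 μM of the MEK inhibitor PD0325901 and 100 μg/mL vitamin C. Serum, basal medium, inhibitors and vitamin C changed together, so that their parts cannot be told apart. There were 2 biological replicates per day, and libraries were made with a stranded mRNA kit, which selects poly(A) RNA. The level of a family is the deposited log2 CPM, which sums all copies of a family across the genome and is not set against their number or length, so that levels were compared between days and not between families. In bulk RNA, fewer cells with a transcript and less of it per cell cannot be told apart.

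Each sample held between 73230745 and 83688345 reads on 12626 genes and between 725940 and 1896202 weighted reads on transposon families, and 3 reads corresponded to 0.034 to 0.042 CPM. The 5 ES cell markers searched were all listed, with a summed level of 2255 to 2865 CPM at D0, 3234 to 3427 CPM at D6 and 2434 to 2935 CPM at D13. Of the markers of other cell types, 2 of 4 for primitive endoderm (Sox17 and Dab2, 16.5 to 18.0 CPM at D0 and 1.53 to 2.13 CPM after), 2 of 4 for trophoblast (Eomes and Tfap2c, 36.4 to 98.1 CPM, lowest in a D0 sample) and 3 of 5 for fibroblasts (10.1 to 29.7 CPM at D0 and 4.86 to 5.62 CPM after) had a value. These sums differed between D0 and the later days, but not all genes of a list moved with its sum. Dab2 had a log2 CPM of 3.99 and 4.07 at D0 and -0.75 and -0.52 at D13, but Sox17 had -0.61 and 0.26, then 0.31 and -0.07. Tfap2c had 4.95 and 6.04, then 6.17 and 6.10, but Eomes had 2.44 and 1.89, then 1.74 and 1.71. Col1a1 had 4.21 and 1.87, then 1.08 and 1.03, but Thy1 had 2.70 and 1.77, then 1.48 and 1.79. The part of these genes in the SINE values was not tested. Replicates differed across transposons as a class: replicate 1 was higher for 258 of 302 families at D0 and 291 at D6, and replicate 2 for 236 at D13, with median differences of 0.42, 0.77 and -0.78 on the log2 scale. Over genes, these medians were -0.06, -0.02 and 0.01.

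**Figure D1:**
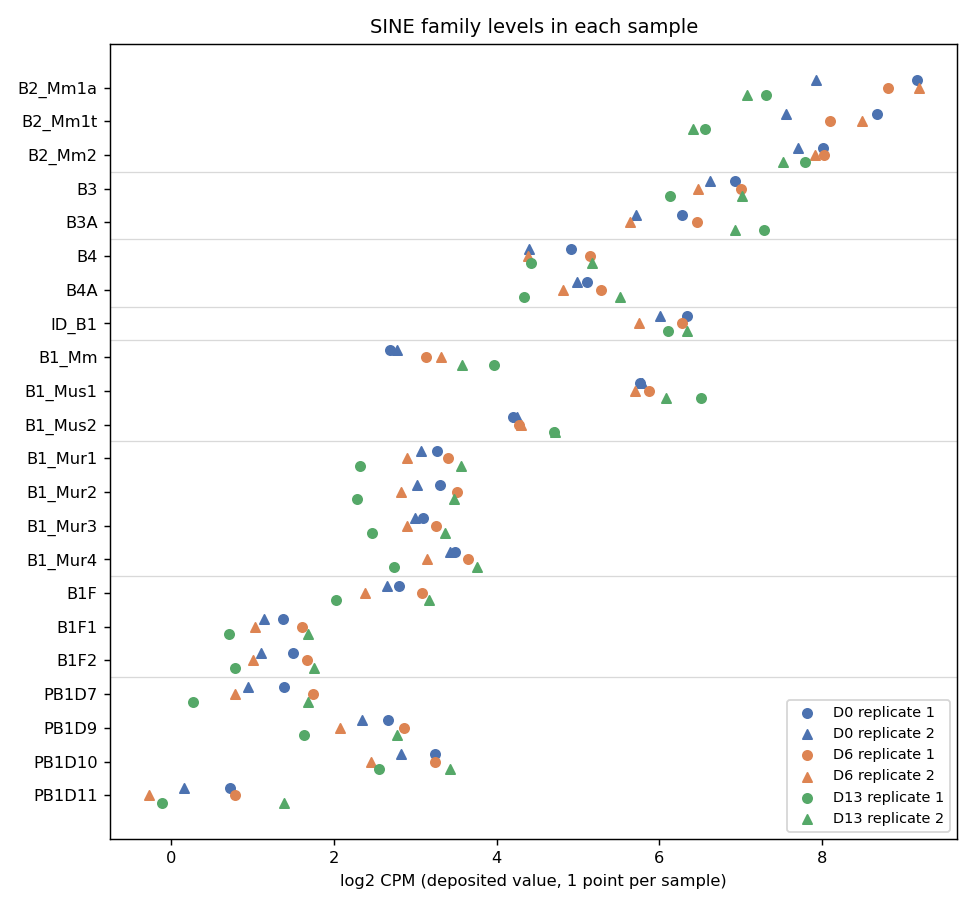
Deposited log2 CPM (horizontal axis) of the 22 SINE families (vertical axis) in the 6 samples, with circles for replicate 1 and triangles for replicate 2, coloured by day. B2_Mm1a and B2_Mm1t lie lowest in both D13 samples, the 3 Mus-lineage B1 families and B3A lie highest in both, and the 11 other B1 families spread widest at D13, with replicate 1 low and replicate 2 high.

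B2_Mm1a had between 10129 and 49585 weighted reads per sample. B2_Mm1a had a log2 CPM of 9.17 and 7.93 in D0 replicates 1 and 2, 8.81 and 9.19 at D6 and then 7.31 and 7.08 at D13. Both D13 samples lay below all 4 earlier samples, while the D0 samples differed by 1.24, more than the whole step between the means of D0 and D6, and enclosed the first D6 sample. B2_Mm1t followed the same course, with 8.67 and 7.56 at D0, 8.09 and 8.49 at D6 and then 6.56 and 6.41 at D13. Again the D13 samples were the lowest and the D0 and D6 samples overlapped. Each read was shared out over the sites it mapped to, so that a read fitting copies of both families counted towards both. The courses of B2_Mm1a and B2_Mm1t, and the calls on them, may thus not be independent. The number of such reads was not analysed here.

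B2_Mm2 was flatter, with 8.01 and 7.70 at D0, 8.03 and 7.91 at D6 and then 7.79 and 7.52 at D13. Its D13 samples lay below both D6 samples but overlapped those of D0. The 3 B2 families thus had both D13 samples below both D6 samples, as did 21.9% of the 302 families.

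From D6 to D13, 2 of 22 SINE families were down-regulated by more than 2-fold with an adjusted p under 0.05, against 3.97% of all transposon families. B2_Mm1a fell 3.50-fold (log2 fold change -1.81, SE 0.37, limma adjusted p = 0.036) and B2_Mm1t 3.50-fold (-1.81, SE 0.35, limma adjusted p = 0.031). B2_Mm2 differed by -0.32 (SE 0.22, limma adjusted p = 0.41), and its 95% confidence interval, -0.81 to 0.18, did not reach -1.81. The difference between these families was not tested. When D6 replicate 1, D6 replicate 2, D13 replicate 1 or D13 replicate 2 was left out, neither call was made in any of these fits, with log2 fold changes between -2.01 and -1.61 and limma adjusted p between 0.052 and 0.19. Relative to the summed transposon CPM of each sample, which itself fell, the difference was -0.95 for B2_Mm1a and -0.95 for B2_Mm1t and was not called (limma adjusted p = 0.11 for both).

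From D0 to D13, the same pair of B2 families was down-regulated, 2 of 22 SINE families against 5.63% of all families. The fall was 2.56-fold for B2_Mm1a (SE 0.37 on the log2 scale, limma adjusted p = 0.019) and 3.09-fold for B2_Mm1t (SE 0.35, limma adjusted p = 0.0059), and these 2 were also the members with both D13 samples below both D0 samples, which 14.2% of all families showed. B2_Mm1t ranked 8th and B2_Mm1a 14th among the 302 families in the size of their fall. D0 replicate 1 weighed on the value of B2_Mm1a: without that sample it changed by -0.73 from D0 to D13 (limma adjusted p = 0.072), and it was called up from D0 to D6 with 1.07 (limma adjusted p = 0.035).

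Set against B2_Mm2 in the same sample, B2_Mm1a was 1.16 and 0.22 higher on the log2 scale at D0, 0.78 and 1.27 higher at D6, and differed by -0.48 and -0.44 at D13. B2_Mm1t minus B2_Mm2 was 0.66 and -0.15 at D0, 0.06 and 0.58 at D6 and then -1.22 and -1.11 at D13. In both cases the D13 samples were the lowest of the 6, a difference within each sample that no scaling of whole samples can move. B2_Mm1a minus B2_Mm1t stayed between 0.37 and 0.75 in all 6 samples.

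The Mus-lineage B1 families were highest at D13. B1_Mm had a log2 CPM of 2.70 and 2.78 at D0, 3.14 and 3.32 at D6 and then 3.97 and 3.58 at D13, from 510 to 1117 weighted reads. The 3 days did not overlap, with both samples of each day above both of the day before. B1_Mus1, the B1 family with the most reads (4278 to 6508), had 5.76 and 5.78 at D0, 5.87 and 5.70 at D6 and then 6.51 and 6.08 at D13. B1_Mus2 had 4.20 and 4.25 at D0, 4.27 and 4.30 at D6 and then 4.70 and 4.71 at D13, with replicates closer than those of any other SINE family at D13. For both, the D13 samples lay above all 4 earlier samples.

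B1_Mm was up-regulated 2.05-fold from D0 to D13 (log2 fold change 1.03, SE 0.28, limma adjusted p = 0.018), just past the 2-fold minimum. Without D0 replicate 1 its change was 0.99 and without D13 replicate 1 it was 0.84, both under that minimum, and without either D6 sample its limma adjusted p was 0.051 or 0.052. B1_Mus1 differed by 0.52 (SE 0.23, limma adjusted p = 0.095, 95% confidence interval 0.01 to 1.04) and B1_Mus2 by 0.49 (SE 0.23, limma adjusted p = 0.12) and were not called. Together with B3A below, B1_Mm made 2 of 22 SINE families called up from D0 to D13, against 9.27% of all families. The same 3 B1 families and B3A had both D13 samples above both D0 samples, 4 of 22 against 19.9% of all families.

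From D6 to D13, limma called 0 of 22 SINE families up and 0% of all families, and at an unadjusted p under 0.05 3 of 22 SINE families differed in either direction (B2_Mm1a, B2_Mm1t and B3A), next to 45 of 302 over all families. Both D13 samples lay above both D6 samples in only 8 of 302 families (2.65%), and 4 of these 8 were SINEs: B1_Mm, B1_Mus1, B1_Mus2 and B3A. Their log2 fold changes were 0.55 for B1_Mm, 0.51 for B1_Mus1 (SE 0.23, limma adjusted p = 0.21), 0.42 for B1_Mus2 and 1.05 for B3A. They ranked 11th, 12th, 15th and 1st among the 302 families, whose median was -0.35. Relative to the summed transposon CPM, B1_Mm (1.40), B1_Mus1 (1.36) and B3A (1.91) passed the threshold (limma adjusted p = 0.046, 0.029 and 0.0022). This scaling moved the median of the 22 SINE families from -0.13 to 0.73, with 20 of 22 above 0. The share of all families called under it was not counted.

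**Figure D2:**
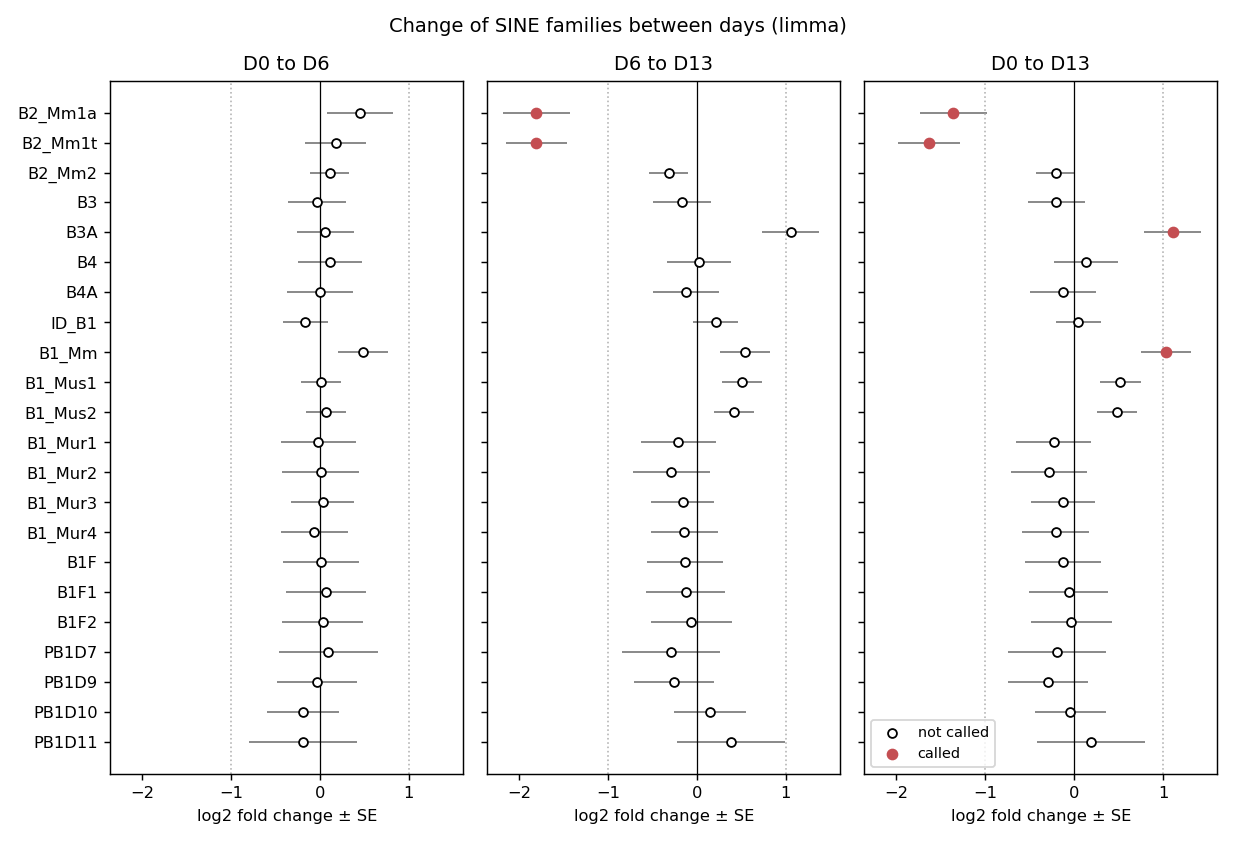
log2 fold change ± SE (limma, horizontal axis, dotted lines at 2-fold) of each SINE family (vertical axis) for the steps D0 to D6, D6 to D13 and D0 to D13, with filled red points for families called changed. No family is called at D6, B2_Mm1a and B2_Mm1t are called down at D13 against both earlier days, and B3A and B1_Mm are called up at D13 against D0.

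From D0 to D6, limma called 0 of 22 SINE families up or down, and 0 of 22 had an unadjusted p under 0.05 (48 of 302 over all families), while 12.9% of all transposon families were called up and 0% down. The log2 fold changes ran from -0.19 to 0.49, with a median of 0.02 against 0.18 over all families. The largest was that of B1_Mm, 0.49 (SE 0.28, limma adjusted p = 0.26), followed by B2_Mm1a with 0.45 (SE 0.37, limma adjusted p = 0.44), and both were below 0 relative to the summed transposon CPM. Both D6 samples lay above both D0 samples for B1_Mm and B1_Mus2, 2 of 22 against 24.5% of all families, and below them for 0 of 22 against 1.99%. Set against the mean of D0 and D13, D6 differed by 1.13 for B2_Mm1a (SE 0.32, limma adjusted p = 0.068) and by 0.99 for B2_Mm1t (SE 0.30, limma adjusted p = 0.081), and the former was called with the replicate block (limma adjusted p = 0.020). In that comparison limma called 0 of 22 SINE families, 2 of which had an unadjusted p under 0.05 (58 of 302 over all families), against 9.93% of all families called up and 0% down.

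The 11 other B1 and PB1 families showed no such course. From D0 to D13 their log2 fold changes ranged from -0.30 to 0.19, with a median of -0.13, against -0.10 over all families, and none was called in any comparison. In 11 of 11, the samples of every pair of days overlapped. Over all families, the later day lay wholly above the earlier in 24.5% (D0 to D6), 2.65% (D6 to D13) and 19.9% (D0 to D13). It lay wholly below in 1.99%, 21.9% and 14.2%. The replicates of a day differed in the direction seen over transposons as a class. Replicate 1 was higher in 11 of 11 at D0 (median difference 0.28) and at D6 (0.69), against 258 and 291 of 302 families (0.42 and 0.77). At D13 replicate 2 was higher in 11 of 11, against 236 of 302 families. The median of replicate 1 minus replicate 2 was then -1.13 (range -1.49 to -0.87), against -0.78 over all families. B1_Mur1, for example, had a log2 CPM of 3.27 and 3.08 at D0, 3.41 and 2.90 at D6 and then 2.32 and 3.57 at D13. PB1D11, with the fewest reads of the SINE families (66 to 196), had 0.73 and 0.17, 0.80 and -0.27, and -0.10 and 1.39.

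A similar order of samples was found in the 6 MIR and L2 families, chosen after the B1 values were seen. They are ancient mammalian repeats that only fall outside the families taken by name. On each day, most of the 302 families had replicate differences of the same sign. Their mean log2 CPM was 1.43 and 1.10 at D0, 1.44 and 0.81 at D6 and then 0.95 and 1.64 at D13. The mean of the 11 B1 and PB1 families minus this level was 1.01, 1.06, 1.18, 1.12, 0.66 and 1.09 in the same order, so that 5 samples lay between 1.01 and 1.18 and D13 replicate 1 lay below them. The mean of the 3 Mus-lineage families minus that of the other 11 was 1.78 and 2.11 at D0, 1.81 and 2.51 at D6 and then 3.45 and 2.06 at D13. D13 replicate 1 was the highest of these and D13 replicate 2 lay within the range of the earlier days, so that the difference between both kinds of B1 at D13 rests on 1 sample.

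**Figure D3:**
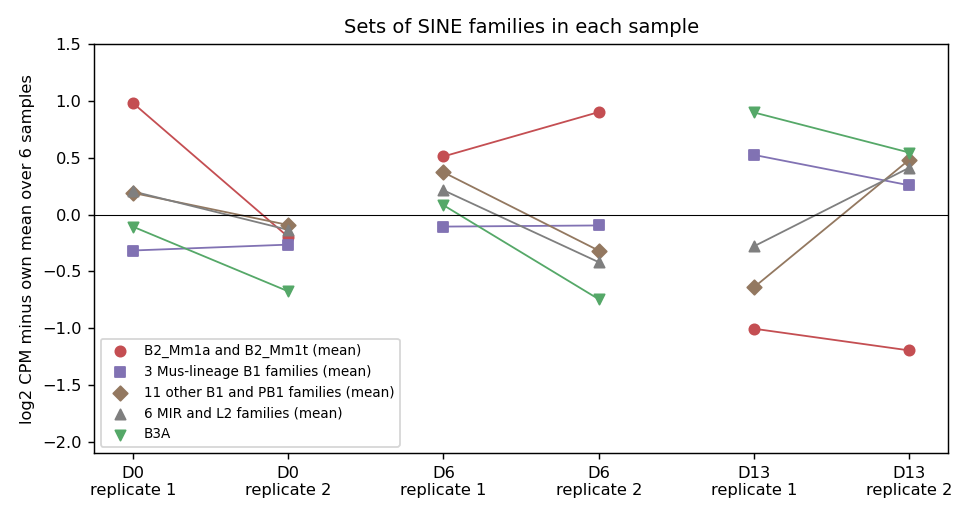
log2 CPM of sets of SINE families minus their own mean over the 6 samples (vertical axis), by sample (horizontal axis), with the MIR and L2 families for comparison and lines joining the replicates of a day. The 11 other B1 and PB1 families move with MIR and L2 from sample to sample, reaching -0.64 and 0.48 at D13, while B2_Mm1a and B2_Mm1t (lowest at -1.19), the Mus-lineage B1 families (0.52 and 0.26) and B3A (0.90 and 0.54) keep their side of 0 in both D13 samples.

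Within the other group, B3A stood apart. It had a log2 CPM of 6.28 and 5.71 at D0, 6.47 and 5.64 at D6 and then 7.28 and 6.93 at D13, from 4239 to 11117 weighted reads. Both D13 samples lay above all 4 earlier samples, and D0 and D6 overlapped. B3A was up-regulated 2.16-fold from D0 to D13 (log2 fold change 1.11, SE 0.32, limma adjusted p = 0.023), and its 1.05 from D6 to D13 (SE 0.32, limma adjusted p = 0.094) fell short, but was called with the replicate number as a block (limma adjusted p = 0.017). Without D0 replicate 2 its change from D0 to D13 was 0.83 and without D13 replicate 1 it was 0.94, neither called (limma adjusted p = 0.13 for both).

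B3 showed no such rise. It had 6.92 and 6.62 at D0, 7.01 and 6.47 at D6 and then 6.13 and 7.01 at D13, with overlap between all days and a difference of -0.20 from D0 to D13 (SE 0.32, limma adjusted p = 0.64). B3A minus B3 in the same sample was -0.65 and -0.91 at D0, -0.54 and -0.83 at D6 and then 1.15 and -0.08 at D13. Both D13 samples were the highest, but the replicates of D13 spread widely (SD 0.87, n = 2).

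B4A had 5.11 and 4.98 at D0, 5.29 and 4.81 at D6 and then 4.34 and 5.51 at D13, and B4 kept the same order of samples within D0, D6 and D13. ID_B1 had 6.34 and 6.01 at D0, 6.27 and 5.75 at D6 and then 6.10 and 6.34 at D13. The days overlapped for each of these families. From D0 to D13 the difference was -0.12 for B4A (SE 0.37, limma adjusted p = 0.81), 0.14 for B4 (SE 0.36, limma adjusted p = 0.77) and 0.05 for ID_B1 (SE 0.25, limma adjusted p = 0.89). Their 95% confidence intervals reached from -0.97 to 0.72, -0.68 to 0.96 and -0.53 to 0.62. The estimate of B3A (1.11) lay outside them, but its own interval, 0.38 to 1.84, overlapped each of them. The difference between B3A and these families was not tested.

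Added over families, B2 took 1241 and 640 CPM at D0, 981 and 1184 CPM at D6 and then 473 and 404 CPM at D13. The D13 samples were the lowest, and the replicates of D0 differed by more than those of D6 or D13. B1 took 151 and 142 CPM at D0, 167 and 134 CPM at D6 and then 173 and 192 CPM at D13, both D13 samples being the highest. Within this sum, B1_Mm, B1_Mus1 and B1_Mus2 had means of 6.68, 54.6 and 18.7 CPM at D0 and 13.8, 79.3 and 26.1 CPM at D13. The 11 other B1 and PB1 families had a median log2 fold change of -0.13 between these days. The other group took 345 and 268, 369 and 241, and 336 and 413 CPM, with overlap between the days.

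As a share of SINE CPM, B2 made up 66.2% ± 7.4 at D0, 70.3% ± 8.0 at D6 and 44.1% ± 5.8 at D13, B1 11.1% ± 3.4, 9.8% ± 1.7 and 18.3% ± 0.97, and the other group 22.7% ± 4.0, 19.9% ± 6.2 and 37.6% ± 4.8 (SD, n = 2). These shares add up to the whole, so that the shares of B1 and of the other group rise where that of B2 falls. The log2 ratio of B2 to B1 CPM was 3.04 and 2.17 at D0, 2.55 and 3.14 at D6 and then 1.45 and 1.07 at D13. Both D13 samples lay below all earlier ones. For D13 against either earlier day alone, an exact permutation test of 2 against 2 samples cannot give p under 0.33. The B1, B2 and other groups together took 10.2% ± 1.4, 7.9% ± 2.3 and 9.1% ± 0.81 of transposon CPM on the 3 days (SD, n = 2).

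**Figure D4:**
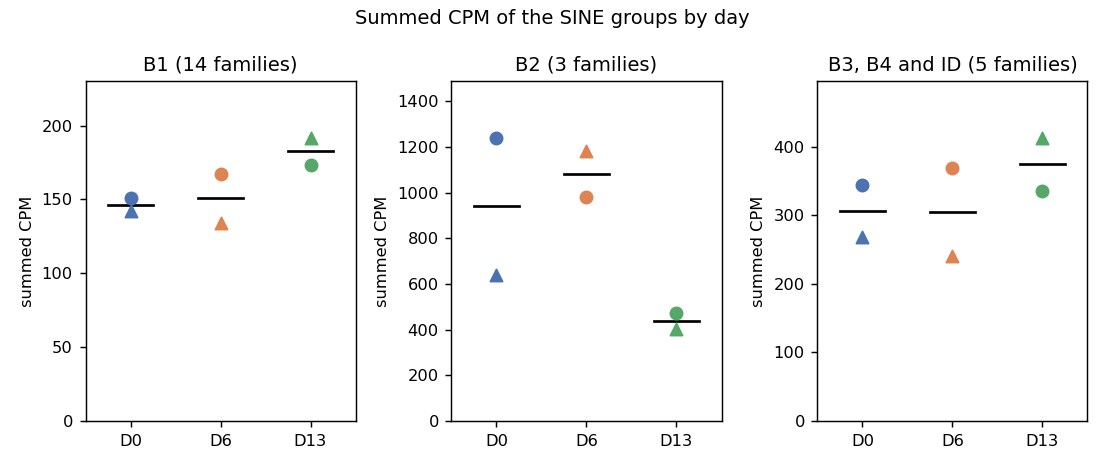
Summed CPM of the B1, B2 and other SINE groups (vertical axes, each from 0) by day, with circles for replicate 1, triangles for replicate 2 and bars for the mean. B2 falls to 473 and 404 CPM at D13, B1 is highest there with 173 and 192 CPM, and the other group overlaps between days.

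RNA polymerase III and its factors, not all of which act at SINE promoters, were measured for 21 of 28 listed genes. Gtf3a and Gtf3c1 to Gtf3c6 were not matched, so that the counts and the median below leave these factors out. None of the 21 changed by the 4-fold used for genes, a change that 9.81% of all genes showed from D0 to D6 and 1.09% from there to D13, with 13.5% over the whole course. At an adjusted p under 0.05 with no minimum fold change, 3 were lower and 0 higher at D6 than at D0 (all genes, 10.4% and 13.8%), and 4 were lower and 1 higher at D13 than at D0 (21.8% and 20.9%). From D6 to D13 neither direction had a call, against 2.76% of genes lower and 1.43% higher. The median log2 fold change of the list from D0 to D13 was -0.44 against -0.01 over all genes.

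Among these genes, the Pol III subunit Polr3d (chromosome 14, 70438757 to 70443447 of GRCm38) had a log2 CPM of 5.92 and 5.98 at D0, 4.85 and 4.85 at D6 and then 5.33 and 5.04 at D13, and it fell by 1.10 from D0 to D6 (SE 0.22, limma adjusted p = 0.0066). Polr3gl fell by 1.29 between the same days (limma adjusted p = 0.039). From D0 to D13, Brf1, a subunit of the initiation factor TFIIIB, fell by 1.02 (limma adjusted p = 0.010) and the subunit Crcp rose by 0.70 (limma adjusted p = 0.040). Maf1 (chromosome 15, 76351294 to 76354380), which represses Pol III, had 5.78 and 5.88 at D0, 5.63 and 5.75 at D6 and then 4.93 and 4.53 at D13, and fell by 1.10 from D0 to D13 (SE 0.23, limma adjusted p = 0.0055). The lower genes thus held subunits of the machinery and its repressor alike.

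Of 15 listed RNA-binding proteins, which include binders of SINE or 7SL RNA, 14 were measured and none changed by 4-fold. At an adjusted p under 0.05 with no minimum fold change, 1 was lower and 0 higher at D6 than at D0 (all genes, 10.4% and 13.8%), and 1 was lower and 1 higher at D13 than at D0 (21.8% and 20.9%). Adarb1, an RNA-editing enzyme, fell by 1.41 from D0 to D6 and fell by 1.69 from D0 to D13 (limma adjusted p = 0.0084 and 0.0023), and Larp7 rose by 0.68 from D0 to D13 (limma adjusted p = 0.035). The median of the list from D0 to D13 was -0.0033, next to -0.01 over all genes.

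Of 17 chromatin proteins that bind or modify SINE copies, 3 changed by 4-fold against D0 on either day (all genes, 9.81% at D6 and 13.5% at D13), all of them lower. The Dnmt3 family genes Dnmt3a, Dnmt3b and Dnmt3l differed by -2.41, -3.37 and -4.87 at D6 against D0 and by -2.39, -3.70 and -6.32 at D13 (limma adjusted p of 0.00026 or lower). At an adjusted p under 0.05 with no minimum fold change, 6 were lower and 1 higher at D6 (all genes, 10.4% and 13.8%), and 9 were lower and 1 higher at D13 (21.8% and 20.9%). The gene that rose was Uhrf1, which brings Dnmt1 to hemimethylated DNA, with 1.11 and 1.65 (limma adjusted p = 0.0060 and 0.00054). Adnp (chromosome 2, 168180986 to 168207112), whose protein binds B2 copies in a complex with Chd4 and HP1 proteins, had a log2 CPM of 7.64 and 8.20 at D0, 7.65 and 7.73 at D6 and then 5.58 and 6.64 at D13. It was the only 1 of the 17 called at any fold from D6 to D13 (all genes, 2.76% lower and 1.43% higher). It fell by 1.58 in that step (SE 0.35, limma adjusted p = 0.043) and by 1.81 from D0 to D13 (limma adjusted p = 0.0035). Suv39h1, an H3K9 methyltransferase gene, fell by 1.32 from D0 to D6 (limma adjusted p = 0.0058), then differed by 1.09 from D6 to D13 (limma adjusted p = 0.0502), and stood at -0.23 at D13 against D0 (limma adjusted p = 0.49).

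Chimeric transcripts that start in a SINE copy were listed by the study for Mylpf, 1500012F01Rik, Kdm2b and Mybl2, from these samples, so that these genes are no independent evidence of direction. The values below are those of the whole gene and not of the chimeric transcript, whose junction reads were not analysed here. In the study's list, absolute junction reads were fewest at D13 for 1500012F01Rik and Mybl2, and most at D6 for Mylpf and Kdm2b. The whole-gene values thus do not stand for the course of these transcripts. Mylpf (chromosome 7, 127208890 to 127214298, with an ID_B1 copy) rose from a log2 CPM of 4.46 and 4.58 at D0 to 6.79 and 6.90 at D6 and 7.16 and 6.36 at D13, by 2.33 and 2.24 against D0 (limma adjusted p = 0.00049 and 0.00041), while the ID_B1 family as a whole differed by -0.16 and 0.05. 1500012F01Rik (with a B2_Mm2 copy) had 6.05 and 6.86 at D0, 6.73 and 5.76 at D6 and then 8.16 and 7.17 at D13, a change of 1.21 from D0 to D13 under the 4-fold minimum (limma adjusted p = 0.0498). Kdm2b (with a B4A copy) differed by 0.39 at D6 and -0.03 at D13 against D0 (limma adjusted p = 0.26 and 0.91), and Mybl2 (with a B1_Mur3 copy) by 0.11 on both days (limma adjusted p = 0.84 and 0.79).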

How the data were processed

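RNA-seq libraries of J1 ES cells (D0, D6 and D13) were analysed from 1 gene table and 1 transposon table per sample. Per the submitters' processing notes, TopHat2 2.0.6, HTSeq 0.6.1 and Bowtie 1.0.0 were used on mm10. For transposons, the authors kept only perfect matches, dropped rRNA and exonic reads, and shared each read out over the sites it mapped to. Reads that carry a sequence difference from mm10 were therefore lost on all days, and whether their share differed between days was not tested. The authors scaled genes and families together by TMM and deposited voom log2 CPM values, which were used unchanged.

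Read numbers were worked out from the values, as 100% of gene values were whole reads within 0.01 after removing the offset of 0.5. Days were compared with limma 3.58.1 in R 4.3.3, with a mean per day, a mean-variance trend and p-values adjusted by Benjamini-Hochberg across all 12928 genes and families. Calls needed an adjusted p under 0.05 and more than a 2-fold (families) or 4-fold (genes) change. The fit was tested on simulated data. Tables used Python 3.11.15. Full statistics are given for members called in any comparison, the B2 families, and the family with the highest mean CPM in B1, B3, B4 and ID, and other values of members are descriptions. Genes of the companion lists are named if called, then by size of change past the adjusted p, to at most 6 a list, save 1 gene that is not reported here. B4, B1_Mus2, B1_Mur1 and PB1D11 were added after their values were seen. Gene names in the files lack the capital G, so that Gtf3a and Gtf3c1 to Gtf3c6 were not matched. Positions are from GENCODE vM21 (GRCm38), and 1500012F01Rik has no entry there. The members and lists were chosen with earlier results of these data known. Alternatives were filters, scalings, fits and single samples left out. Single copies, sequences and strand were not analysed here.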

Additional observations from a re-analysis of the deposited data

How the results depend on the processing

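With 2 samples per day, each mean, SD and SE rests on little, and reads limited only the smallest families (PB1D11, 66 to 196 weighted reads). B2_Mm1t from D0 to D13 was called in all 17 alternatives tried. Voom precision weights, centring on the median gene and no minimum fold change moved no count of calls. The filter of 10 reads in 2 samples, 1 of these 17, left the adjusted p unchanged, so that it could not move a call. The cause of the shifts below was not tested, save that leaving out a sample leaves fewer samples.

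For calls up from D0 to D6 (0), leaving out single samples gave 0 to 1, the call being B2_Mm1a (1.07, limma adjusted p = 0.035) without D0 replicate 1. For calls down from D6 to D13 (2), it gave 0 to 2, with 0 without any D6 or D13 sample (B2_Mm1a -1.99 to -1.62, B2_Mm1t -2.01 to -1.61). limma without a trend gave 1, and scaling to the summed transposon CPM gave 0, with 3 called up (B1_Mm, B1_Mus1 and B3A). The replicate block gave 1 up from D6 to D13 (B3A, 1.05, limma adjusted p = 0.017) and 1 up at D6 against the mean of D0 and D13 (B2_Mm1a, 1.13, limma adjusted p = 0.020), and it changed no other call. Same-numbered replicates deviated from their day's mean with r of -0.06 (D0 and D6), 0.24 (D6 and D13) and 0.12 (D0 and D13) across all genes and families and of 0.54, 0.10 and 0.22 across the 302 families, none of them independent, so that whether the numbers pair the samples is unclear, and the fit without the block was kept. In the latter comparison, leaving out single samples gave 0 to 2 up (2 without D0 replicate 1, B2_Mm1a and B2_Mm1t), and scaling to the transposon sum gave 1 down (B3A, -1.21).

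For calls up from D0 to D13 (2), leaving out single samples gave 0 to 2: without D13 replicate 1 neither was made (B1_Mm 0.84, B3A 0.94), without D0 replicate 2 only B1_Mm, and without D0 replicate 1, D6 replicate 1 or D6 replicate 2 only B3A. B3A alone, 1 family, was called in a fit of only the 2 days, on log2(CPM + 1) and scaled to the transposon sum. Adjustment over families only gave 0 (B1_Mm limma adjusted p = 0.052, B3A 0.061). For calls down (2), single samples gave 1 to 2, with only B2_Mm1t called without D0 replicate 1, D13 replicate 1 or D13 replicate 2 (B2_Mm1a -0.73, -1.47 and -1.24). Adjustment over families only and scaling to the transposon sum also gave 1. Centring on the MIR and L2 families, chosen after seeing the data, gave 0 up (B3A 1.08) and 1 down.

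Directions turned only for differences that were not called. Scaled to the transposon sum, the change from D0 to D6 was -0.084 for B1_Mm, -0.12 for B2_Mm1a, -0.40 for B2_Mm1t, -0.51 for B3A, -0.46 for B2_Mm2, -0.56 for B1_Mus1 and -0.57 for B4A. From D6 to D13 it was 0.54 for B2_Mm2, 0.69 for B3 and 0.73 for B4A, and from D0 to D13 0.079, 0.084 and 0.16 for these families. At D6 against the mean of D0 and D13 it was -0.50, -0.65 and -0.65. Centred on MIR and L2, B3 from D0 to D6 was 0.10 and B1_Mm at D6 against the mean was 0.12. Voom weights gave B4A from D0 to D6 -0.00034.

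Leaving out single samples turned values from D0 to D6 within -0.17 to 1.07 (B2_Mm1a), -0.38 to 0.73 (B2_Mm1t), -0.35 to 0.47 (B3A), -0.042 to 0.27 (B2_Mm2), -0.075 to 0.10 (B1_Mus1), -0.30 to 0.24 (B3), -0.24 to 0.24 (B4A) and -0.43 to 0.10 (ID_B1). From D6 to D13 the ranges were -0.61 to 0.27 (B3), -0.71 to 0.46 (B4A) and -0.054 to 0.47 (ID_B1). From D0 to D13 they were -0.64 to 0.24 (B3), -0.71 to 0.46 (B4A) and -0.12 to 0.21 (ID_B1). At D6 against the mean they were -0.13 to 0.068 (B1_Mm), -0.20 to 0.34 (B3), -0.23 to 0.36 (B4A) and -0.45 to 0.078 (ID_B1).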

Other observations

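In some SINE families, the replicates of a day departed from the difference shared by most transposons. At D6, replicate 2 was higher in 11 of 302 families, and 4 of these were B2_Mm1a, B2_Mm1t, B1_Mm and B1_Mus2. Their differences of replicate 1 minus replicate 2 in log2 CPM were -0.38, -0.40, -0.18 and -0.03, against a median of 0.77 over all families, and that of B2_Mm1t was the lowest of the 302. At D13, replicate 1 was higher in 66 of 302 families and in 6 of 22 SINE families, namely B2_Mm1a (0.23), B2_Mm1t (0.15), B2_Mm2 (0.26), B1_Mm (0.39), B1_Mus1 (0.43) and B3A (0.35), against a median of -0.78 over all families. These families were picked out after their values were seen, and their replicate differences were not tested.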
